A study of Mus musculus with 282 samples.

Results

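The Gm numbers are provisional names given to mouse loci that an annotation predicts to be genes before anything is known of their products. Of the 14079 gene rows of the hypothalamus table, 202 carried a name from Gm10000 to Gm19999 and no other name. They were chosen by name alone, and no measured value entered the choice. A further 39 gene rows that pair such a name with another gene name were left out. The libraries came from the whole hypothalamus of 282 male mice fed a high fat diet, 1 unstranded mRNA library per mouse, and the age of the mice was not given in the sources used here. The mice belonged to the Hybrid Mouse Diversity Panel, a collection of inbred strains in which mice of 1 strain are genetically alike. The 99 strains were 43 BXD strains (126 mice), 18 AXB/BXA strains (47 mice), 7 CXB strains (21 mice), 6 BXH strains (16 mice) and 25 classical inbred strains (71 mice), and 1 more mouse, with 2 strain names in its labels, entered no strain comparison. The recombinant sets descend from crosses of C57BL/6J (or a substrain) with DBA/2J (BXD), A/J (AXB/BXA), BALB/c (CXB) and C3H/HeJ (BXH). All mice were male and on the same diet, so strain was the only variable compared.

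A predicted gene can be one of several things. A processed pseudogene, or retrocopy, arises when the mRNA of a gene is copied back into the genome, so it lacks introns and is nearly identical to its parent gene. An antisense RNA is read from the opposite strand of another gene, and a long intergenic RNA lies between genes. A few predicted genes code for proteins, among them genes of KRAB zinc finger proteins, a fast-evolving family of DNA-binding repressors that sits in clusters and differs in copy number between mouse strains. In a recombinant inbred set each strain carries, at any place in the genome, the allele of 1 of its 2 parents, so a level that is set by a single locus should fall into the parents' levels.

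Each predicted gene that matched an M21 gene was compared with all annotated transcripts. Its closest copy was taken among protein coding genes where any matched, even where another type of gene matched better. The pairs shown here are retrocopies and the genes they were copied from. The sequences below are those of the 5 retrocopies the results turn on and of the same stretch of their parent genes, 120 bases each, on the strand of the gene, from the GENCODE M21 transcripts on GRCm38 (the coordinates of mm10), an assembly made from C57BL/6J. Capitals mark the bases at which the retrocopy and its parent gene differ. Each stretch is the 120 coding bases with the most differences, so differences are sparser in the rest of the aligned coding sequence. They are shown because reads of 50 bases from a stretch with few capitals can fit both places. Further places can match as well. At 90% identity or more over at least 50% of the transcript, Gm10709 matched 64 genes, Gm10020 22, Gm10260 13, Gm10093 3 and Gm10704 2, parent genes included. These 5 pairs were chosen after their values were seen.
Gm10260, chr13:97760158-97760277, minus strand: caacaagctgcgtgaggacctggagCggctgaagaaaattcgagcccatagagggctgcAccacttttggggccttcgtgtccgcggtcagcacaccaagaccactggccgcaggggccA
Rps18, chr17:33952071-33952292, minus strand, spliced: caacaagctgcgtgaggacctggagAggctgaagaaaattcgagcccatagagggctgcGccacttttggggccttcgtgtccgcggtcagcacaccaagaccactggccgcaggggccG
Gm10709, chr9:7752062-7752181, plus strand: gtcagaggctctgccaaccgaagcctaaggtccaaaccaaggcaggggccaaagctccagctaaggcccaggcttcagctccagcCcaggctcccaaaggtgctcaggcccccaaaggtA
Rpl29, chr9:106431304-106431423, plus strand: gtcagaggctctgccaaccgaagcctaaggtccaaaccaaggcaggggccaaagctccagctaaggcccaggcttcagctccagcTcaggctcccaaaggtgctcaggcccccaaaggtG
Gm10020, chr15:52477991-52478110, minus strand: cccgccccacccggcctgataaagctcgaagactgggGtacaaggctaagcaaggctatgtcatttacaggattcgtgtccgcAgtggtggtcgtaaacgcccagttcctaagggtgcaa
Rpl15, chr14:18269978-18270332, minus strand, spliced: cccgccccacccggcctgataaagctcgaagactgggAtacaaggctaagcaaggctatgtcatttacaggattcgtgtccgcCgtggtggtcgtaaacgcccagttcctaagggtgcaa
Gm10704, chr3:88576796-88576915, minus strand: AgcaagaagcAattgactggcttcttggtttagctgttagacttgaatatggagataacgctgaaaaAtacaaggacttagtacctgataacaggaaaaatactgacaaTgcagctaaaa
Rtraf, chr14:19817088-19819966, minus strand, spliced: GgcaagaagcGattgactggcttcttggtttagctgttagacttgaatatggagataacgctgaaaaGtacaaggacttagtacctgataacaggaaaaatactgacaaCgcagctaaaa
Gm10093, chr17:78491989-78492108, plus strand: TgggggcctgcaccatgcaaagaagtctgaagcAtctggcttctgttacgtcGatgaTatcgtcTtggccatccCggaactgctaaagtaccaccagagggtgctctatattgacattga
Hdac1, chr4:129522472-129523049, minus strand, spliced: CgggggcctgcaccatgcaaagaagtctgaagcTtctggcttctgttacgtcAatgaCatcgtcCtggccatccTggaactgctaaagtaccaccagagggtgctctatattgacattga

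Within the coding sequence, counted from the A of the start codon of the parent gene, Gm10260 differed from Rps18 at 4 of 456 aligned bases, of which A337C, G371A and G431A lie in the stretch shown and T186C lies outside it. Gm10020 differed from Rpl15 at 2 of 612 coding bases, A156G and C202A, and both are shown. Gm10709 differed from Rpl29 at 4 of 480 bases, with T423C and G457A shown. Gm10704 differed from Rtraf at 10 of 730 bases and Gm10093 from Hdac1 at 9 of 1444 bases. In each token the base of the parent gene stands first and that of the retrocopy last.

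By their type in GENCODE M21, or in RefSeq where that calls a locus a pseudogene, the 202 predicted genes comprised 102 antisense or intronic RNAs, 39 intergenic or other non-coding RNAs, 28 protein coding genes, 23 pseudogenes and 10 that matched no M21 gene at their place. Of those that matched, 21 have since received another name, such as Zfp970 for Gm14420. Chromosome 2 held 34 of them. They were short: 162 had 1 transcript, the leading transcript had 1 exon in 36 and 2 exons in 106, and its median length was 907 nucleotides. Exonic bases were shared with another M21 gene in 110 of the 202 predicted genes, and in 36 of them at least 50% of the exonic bases were shared. Because the libraries did not record strand, reads of a predicted gene and of a gene that overlaps it, on either strand, cannot be told apart. Because the samples are bulk tissue, fewer cells of a type and less RNA per cell cannot be told apart either.

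The tissue label was checked against marker genes. All 6 hypothalamic markers (Oxt, Avp, Pmch, Hcrt, Agrp and Trh, which are neuropeptide genes) were present, with a sum from 824 to 9094 FPKM over mice. Markers of the anterior pituitary (6 of 7 found) ranged in sum from 0.589 to 16462 FPKM, with a median of 25.8, and those of the choroid plexus (5 of 6 found) from 7.25 to 2101 FPKM, with a median of 24.1, so that libraries varied widely in them. Their part in the strain differences was not tested. Mouse OB-547 of BXD-12/TyJ stood apart, with a sum of all gene FPKM of 792801 against 322047 to 463433 in the others, and it was the highest mouse for 64 predicted genes and for 31.3% of all gene rows. Of the 99 strains, 85 had 3 mice, 12 had 2 and 2 had 1.

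The predicted genes were expressed at low levels. Levels are FPKM, fragments scaled to transcript length and library size, which the authors also scaled between mice. Their median mean level was 1.65 FPKM (quartiles 1.05 and 2.94), against 9.43 FPKM for all gene rows, and 119 of the 202 lay under 2 FPKM. Only 8 had a mean over 10 FPKM. At least 1 mouse was listed at 0 for 87 predicted genes (43.1%), against 5.82% of all gene rows. The table holds no read counts, so the depth behind a value is unknown and 0 FPKM cannot be given a limit.

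The most abundant predicted gene was Gm10222 (chr1:24611530-24616211, minus strand), an unprocessed pseudogene of mitochondrial sequence in the nuclear genome. Its transcript contains a stretch identical (100%) to mt-Nd4l, the mitochondrial gene of a subunit of respiratory complex I, and 82.3% of its exonic bases lie in exons of other annotated genes, chiefly the pseudogene Gm28439. Gm10222 measured 4328 ± 1130 FPKM (SD over 282 mice), the highest mean of all gene rows, with a range from 42.9 to 7529 FPKM. The median mouse was at 4454 FPKM, and the 8 lowest mice came from 4 BXD strains. Outside BXD the lowest strain mean of Gm10222 was that of BXHA1, 1297 FPKM over 2 mice at 1018 and 1577 FPKM. The mice of BXD70 measured 42.9, 162 and 812.1 FPKM for Gm10222, those of BXD-9/TyJ 183, 523 and 793 FPKM, and 1 mouse each of BXD75 and BXD85 measured 165 and 591 FPKM. The strain share of Gm10222, given as the intraclass correlation of log2(FPKM + 1), which is 1 where all variance lies between strains, was 0.763 (adjusted p = 1.3e-39, limma F test over 99 strains). BXD70 and BXD-9/TyJ were thus low in every mouse, and BXD75 and BXD85 in a single mouse each. The authors kept reads that map to several places, so reads of mitochondrial genes can be assigned to Gm10222. Its level and strain share cannot be told apart from such reads, and their part was not tested.

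The next most abundant predicted genes were of all classes. Gm11175 (median 47.5 FPKM) is antisense to Jund, an AP-1 transcription factor, and all of its exonic bases lie in Jund exons. Gm15800 (median 33.2 FPKM), with 76 exons the largest gene among them, is Hectd4 in RefSeq, a gene of a HECT-domain protein. Gm15446 (median 19.5 FPKM) is a protein coding gene whose closest protein coding relative is the zinc finger gene Zfp932. Gm15800 was steady, with strain means from 23.8 FPKM in CXB-3/ByJ to 42.7 FPKM in BXD75, and Gm15446 was not, with strain means from 4.86 FPKM in NON/LtJ to 47.5 FPKM in BXD70. Their strain shares were 0.336 for Gm15800 (adjusted p = 3.0e-07, limma) and 0.622 for Gm15446 (adjusted p = 1.3e-23, limma).

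Of the other abundant predicted genes, Gm10076 is a retrocopy of Rpl41, a protein of the large ribosomal subunit, at 99.5% identity. Gm10076 measured 11.7 FPKM in the median mouse, with a range from 4.68 to 72.4 FPKM and a strain share of -0.01. It did not pass the test between strains (adjusted p = 0.56, limma), nor did Gm16008 (median 7.78 FPKM, share -0.0031, adjusted p = 0.50, limma), which passed by the Kruskal-Wallis test (adjusted p = 0.023). The antisense RNA Gm12750, now Ttc39aos1, had a median of 9.24 FPKM and a strain share of 0.380 (adjusted p = 5.3e-09, limma). Of the 10 most abundant predicted genes, these 2 alone did not pass.

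**Figure D1:**
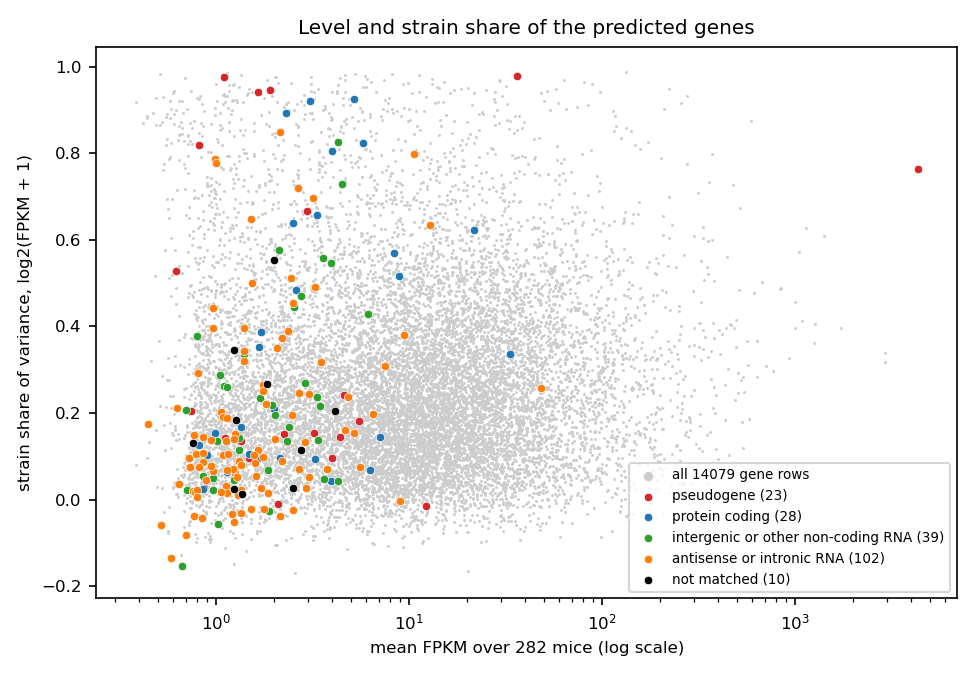
Strain share of variance of log2(FPKM + 1) (vertical axis) against mean FPKM over 282 mice (horizontal log axis), with all 14079 gene rows in grey and the 202 predicted genes coloured by annotation class. Most predicted genes lie left of the grey cloud, at a median of 1.65 FPKM against 9.43, and 6 of them reach a strain share over 0.9.

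Levels of 118 predicted genes (58.4%) differed between the 99 strains at an adjusted p of 0.05 in limma's moderated F test on log2(FPKM + 1), with Benjamini-Hochberg adjustment over all gene rows. Over all gene rows the share was 75.4%. The median strain share was 0.143 for the predicted genes (quartiles 0.0562 and 0.345) and 0.222 for all rows. At the upper end the order was the opposite: 34 predicted genes (16.8%) had a strain share over 0.5, against 12.3% of all rows. Within the sets, 73 predicted genes passed among BXD strains (36.1%, all rows 41.4%), 41 among AXB/BXA (20.3%, all rows 33.5%), 15 among CXB (7.43%, all rows 4.15%), 36 among BXH (17.8%, all rows 18.3%) and 102 among classical inbred strains (50.5%, all rows 61.9%). Without mouse OB-547, 127 passed between all strains and 80 among BXD strains. The shares in BXD and BXH lay near those of all rows. These sets differ in strains and mice, so their counts cannot be set against each other.

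The numbers that passed are given for each class. Over all gene rows 75.4% passed, 12.3% had a strain share over 0.5 and the median strain share was 0.222. Of the pseudogenes, 17 of 23 passed the test between strains (73.9%, near the 75.4% of all rows, median share 0.153), with 8 shares over 0.5. Of the protein coding genes, 19 of 28 passed (67.9%, median share 0.273), with 10 shares over 0.5. Of the intergenic or other non-coding RNAs 26 of 39 passed (66.7%, median share 0.196), and of the antisense or intronic RNAs 49 of 102 (48.0%, median share 0.105). The antisense and intronic RNAs also had the lowest median level, 1.36 FPKM against 2.56 FPKM for the protein coding genes. Differences between classes were not tested.

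**Figure D2:**
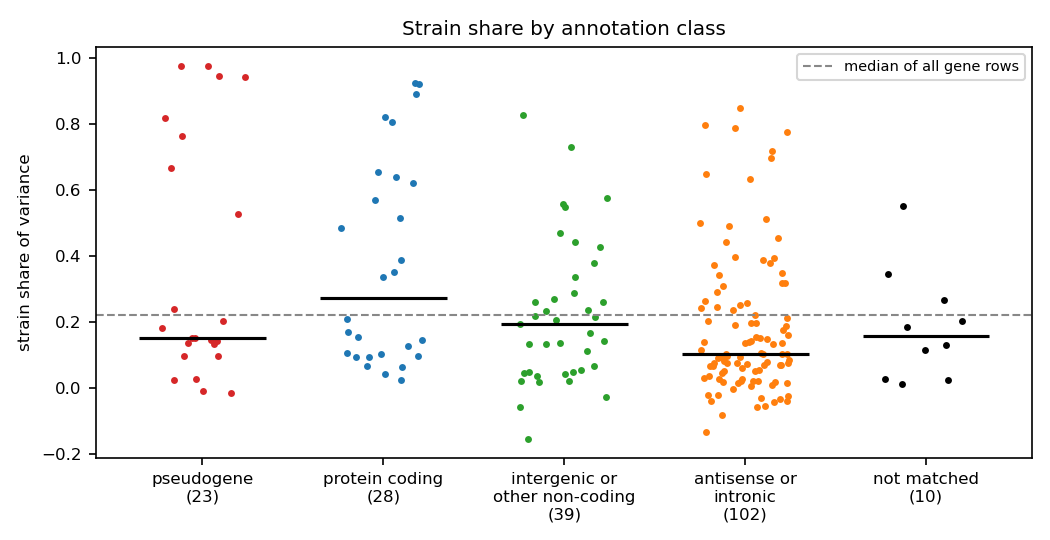
Strain share of variance (vertical axis) of each predicted gene, 1 point per gene, by annotation class, with the number of genes under each class and the median of all 14079 gene rows as a dashed line. Pseudogenes reach the highest shares, up to 0.977, and protein coding genes reach 0.925, while the median of each class but protein coding lies under the dashed line.

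A close copy elsewhere, at 90% identity or more over at least 50% of the transcript, was found for 33 predicted genes. It was judged on 1 match per gene, in a protein coding gene where any matched. The other predicted genes can therefore have close copies of other types. The 10 with no M21 match were not searched and count as without a copy. Of the 33 with such a copy, 26 passed the test between strains (78.8%, near the 75.4% of all gene rows). Their median strain share was 0.516 (all gene rows 0.222), which is the share of Gm14295. That gene belongs to a zinc finger cluster on chromosome 2 with shares from 0.516 to 0.925, and Gm14325 and Gm14403 of this cluster are among the 33. The pseudogenes had a median share of 0.153, with a range from -0.01 to 0.977. Values without the cluster were not computed, so a close copy and membership of the cluster cannot be told apart here. Of the 169 without such a copy 92 passed (54.4%), with a median share of 0.135. Overlap with another gene went with no such difference: 65 of 110 predicted genes that share exonic bases passed (59.1%, median share 0.143), and 53 of 92 that share none (57.6%, median share 0.144). With neither an overlap nor such a copy, 32 of 65 passed (49.2%, median share 0.105). A read of a close copy can be assigned to either place or to a further match, and the part of such reads in the strain differences was not tested.

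The 10 largest strain shares belonged to 4 retrocopies, 4 zinc finger genes of chromosome 2 and 2 non-coding RNAs. The retrocopies were Gm10260 (0.977), Gm10020 (0.976), Gm10709 (0.947) and Gm10704 (0.942). The zinc finger genes were Gm14305 (0.925), Gm14420 (0.921), Gm14403 (0.893) and Gm14326 (0.823). The non-coding RNAs were Gm10516 (0.850), antisense to Rcor3, and Gm16701 (0.827), an intergenic RNA. In all 10, limma's adjusted p between strains was 5.4e-50 or lower. At the other end, Gm13861 (-0.154), Gm17146 (-0.134) and Gm15980 (-0.0814) varied as much within as between strains, with adjusted p from 0.89 to 0.99 in limma.

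An on or off pattern was counted where at least 5 strains had every mouse under 0.1 FPKM and at least 5 strains had every mouse at 1 FPKM or above, among the 97 strains with 2 or 3 mice. It held for 11 predicted genes (5.45%), against 1.24% of all gene rows, and for the same number of predicted genes without mouse OB-547. The limits lie near the low levels of the predicted genes (median 1.65 FPKM, all gene rows 9.43 FPKM). Gene rows of like level were not compared, so the difference in percentages cannot be told apart from that in level. Of the 11, 4 are pseudogenes, 4 are antisense RNAs, 1 is a zinc finger gene and 2 matched no M21 gene. All 11 shared exonic bases with another gene or had a close copy as judged above, and none of the 65 predicted genes with neither had the pattern.

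Gm10020 had the most even pattern, off in 49 strains and on in 27. It was on in 15 BXD strains and 4 BXH strains and in none of the AXB/BXA and CXB strains, where 11 and 5 strains were off. Among classical inbred strains Gm10020 was on in 129X1/SvJ, C3H/HeJ, C57BLKS/J, CBA/J, DBA/2J, KK/HlJ, NZW/LacJ and PL/J. The sets without an on strain were those whose 2 parents were both listed at 0.

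Gm10709 was off in 23 strains and on in 44, with C57BL/6J, C57BLKS/J, C57L/J, CBA/J and KK/HlJ on among the classical inbred strains. Gm10260 was on in 52 strains and off in 10. Among classical inbred strains Gm10260 was on in 20, and only C57BL/6J was off. Gm14420 was on in 77 strains and off in 9, which were 7 BXD strains, NZW/LacJ and SEA/GnJ.

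The other 7 genes with the pattern were less clear. Gm13999 was off in 8 strains and on in 33, and its strain share was 0.787. The strain shares of Gm15648 (0.267), Gm10132 (0.205), Gm17104 (0.204), Gm13008 (0.151), Gm12473 (0.144) and Gm16277 (0.0705) were low, so mice of 1 strain often differed, and Gm16277 did not pass the test between strains (adjusted p = 0.13, limma). Apart from Gm10132, a retrocopy of Rpl23a with no overlap, these genes share much of their exonic sequence with other genes. All exonic bases of Gm15648 lie in Ube2l3, a ubiquitin-conjugating enzyme, and all those of Gm13008 in Eloa, a transcription elongation factor. The shared portion was 98.8% for Gm17104 with U2af1l4, 92.0% for Gm16277 with Gfra1, 64.7% for Gm13999 with Mapkbp1 and 49.2% for Gm12473 with Npr2.

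**Figure D3:**
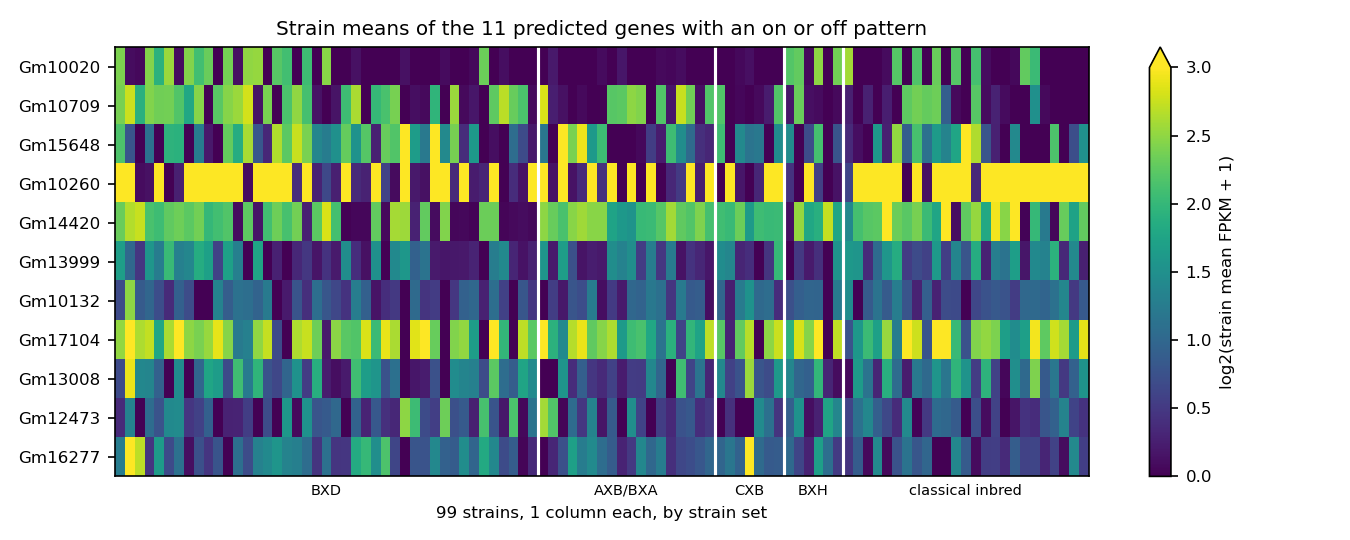
Strain means as log2(FPKM + 1) (colour, values over 3 shown at the end of the scale) of the 11 predicted genes with an on or off pattern (rows) in the 99 strains (columns, grouped by strain set). Gm10020 is dark throughout the AXB/BXA and CXB sets, where no strain was on, and Gm14420 is dark in a portion of the BXD strains and in few others.

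The parent strains were compared with C57BL/6J, 3 mice each, to see which predicted genes differed between the founders of each set. DBA/2J differed in 18 predicted genes (8.91%, against 6.88% of all gene rows), and in 17 of them the mice did not overlap (8.42%, all rows 6.72%). Of the 18, 12 were higher in DBA/2J (5.94%, all rows 3.3%) and 6 lower (2.97%, all rows 3.58%). A/J differed in 17 (8.42%, all rows 8.01%), 16 of them without overlap (7.92%, all rows 7.85%), with 9 higher (4.46%, all rows 3.07%) and 8 lower (3.96%, all rows 4.94%). BALB/cJ differed in 13, all without overlap (6.44%, all rows 6.79%, and 6.51% without overlap), with 5 higher (2.48%, all rows 2.86%) and 8 lower (3.96%, all rows 3.93%). C3H/HeJ differed in 18, all without overlap (8.91%, all rows 7.59%, and 7.31% without overlap), with 9 higher (4.46%, all rows 3.89%) and 9 lower (4.46%, all rows 3.71%). Most of these shares lie near those of all gene rows, and nothing particular to the predicted genes is read from them. The 4 comparisons share the 3 C57BL/6J mice.

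Gm10260 showed the largest difference in every parent comparison. Gm10260 (chr13:97760130-97760588, minus strand), also called Rps18-ps6, is a retrocopy of Rps18, a protein of the small ribosomal subunit, at 99.1% identity over 545 nucleotides. All of its exonic bases also lie in the annotated gene Gm26619. The 3 C57BL/6J mice were all listed at 0 FPKM for Gm10260, and the DBA/2J mice measured 52.0, 75.5 and 69.8 FPKM. The A/J mice measured 75.6, 69.1 and 62.7 FPKM for Gm10260, the BALB/cJ mice 69.2, 69.0 and 72.4 FPKM and the C3H/HeJ mice 69.4, 72.9 and 92.3 FPKM. All 4 other parents were therefore far above C57BL/6J, with no overlap of mice. On the log2(FPKM + 1) scale, whose size here depends on the added 1, the difference of DBA/2J from C57BL/6J was 6.04 ± 0.36 (SE, adjusted p = 4.7e-36, limma).

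Rps18 moved the other way. Rps18 measured 108.5, 105.6 and 108.3 FPKM in the C57BL/6J mice and 48.8, 63.4 and 66.1 FPKM in the DBA/2J mice. The level of Rps18 was lower than in C57BL/6J in all 4 parents, with log2 differences of -0.86 ± 0.19 in DBA/2J (SE, adjusted p = 5.7e-04, limma), -0.89 in A/J, -0.71 in BALB/cJ and -0.63 in C3H/HeJ (adjusted p = 2.7e-04, 0.0084 and 0.021, limma). The sum of Gm10260 and Rps18 was 107.4 ± 1.64 FPKM in C57BL/6J, 125 ± 21.2 in DBA/2J, 127 ± 11.1 in A/J, 136 ± 8.44 in BALB/cJ and 147 ± 17.6 in C3H/HeJ (SD, n = 3 mice each). The mean sum was lowest in C57BL/6J. The sums leave out the other genes that Gm10260 matches closely, and they were not tested.

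Gm10709 (chr9:7751672-7752325, plus strand) is a retrocopy of Rpl29, a protein of the large ribosomal subunit on the same chromosome, at 99.2% identity over 480 nucleotides. The C57BL/6J mice measured 3.45, 5.06 and 2.80 FPKM for Gm10709, and the DBA/2J mice 0, 0 and 0.167 FPKM. All 9 mice of A/J, BALB/cJ and C3H/HeJ were listed at 0 for Gm10709. The log2 difference of Gm10709 in DBA/2J was -2.15 ± 0.21 (SE, adjusted p = 3.5e-17, limma). Rpl29 moved the same way as its retrocopy: it measured 49.1, 41.0 and 38.1 FPKM in the C57BL/6J mice and 8.46, 10.5 and 12.9 FPKM in the DBA/2J mice (log2 difference -1.92 ± 0.18, SE, adjusted p = 3.1e-18, limma). Its means in A/J, BALB/cJ and C3H/HeJ were 8.90, 9.73 and 10.5 FPKM. So in this pair both rows were high in C57BL/6J alone of the 5 parents.

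Gm10020 (chr15:52477614-52478228, minus strand), also called Rpl15-ps6, is a retrocopy of Rpl15, another large-subunit protein, at 99.7% identity over 612 nucleotides. The 9 mice of C57BL/6J, A/J and BALB/cJ were all listed at 0 for Gm10020. The DBA/2J mice measured 2.81, 4.45 and 3.62 FPKM for Gm10020 and the C3H/HeJ mice 3.48, 2.71 and 4.72 FPKM. The log2 difference from C57BL/6J was 2.19 ± 0.13 in both (SE, adjusted p = 2.7e-36, limma). Rpl15 did not pass in any of the 4 comparisons (adjusted p from 0.45 to 0.92, limma), with means from 42.4 ± 2.93 FPKM in C57BL/6J to 46.9 ± 3.32 FPKM in BALB/cJ (SD, n = 3). The log2 difference of Rpl15 in DBA/2J was 0.02 ± 0.09 (SE).

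Gm10704 (chr3:88576245-88577208, minus strand), also called Rtraf-ps, is a retrocopy of Rtraf, a factor of transcription and tRNA ligation, which the table lists under its older name 2700060E02Rik. Exons of Ssr2, on the opposite strand, hold 47.8% of its exonic bases. The DBA/2J mice measured 4.76, 5.26 and 4.45 FPKM for Gm10704, and the C57BL/6J mice 0.212, 0.345 and 0.245 FPKM. The mice of A/J, BALB/cJ and C3H/HeJ ranged from 0.123 to 1.03 FPKM, so DBA/2J alone was high. The log2 difference of Gm10704 in DBA/2J was 2.199 ± 0.19 (SE, adjusted p = 5.5e-21, limma). Rtraf was at 22.3 ± 2.73 FPKM in DBA/2J and 29.6 ± 0.718 FPKM in C57BL/6J (SD, n = 3), which did not pass (adjusted p = 0.057, limma).

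Gm10093 (chr17:78491565-78493541, plus strand), a retrocopy of the histone deacetylase gene Hdac1, was named after its values were seen. The C57BL/6J mice measured 0.141, 0.229 and 0.216 FPKM for Gm10093, and the DBA/2J mice 1.56, 1.01 and 1.38 FPKM. Gm10093 was higher than in C57BL/6J in all 4 parents, with a log2 difference of 0.95 ± 0.16 in DBA/2J (SE, adjusted p = 1.2e-06, limma). Hdac1 itself was at 10.6 ± 0.113 FPKM in C57BL/6J and 8.26 ± 0.0554 FPKM in DBA/2J (SD, n = 3), and among the 4 comparisons it passed in C3H/HeJ only (6.48 ± 1.11 FPKM, adjusted p = 0.0010, limma). Across the 5 pairs the retrocopy and its parent gene therefore moved in opposite directions, in the same direction, or the parent gene did not pass.

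**Figure D4:**
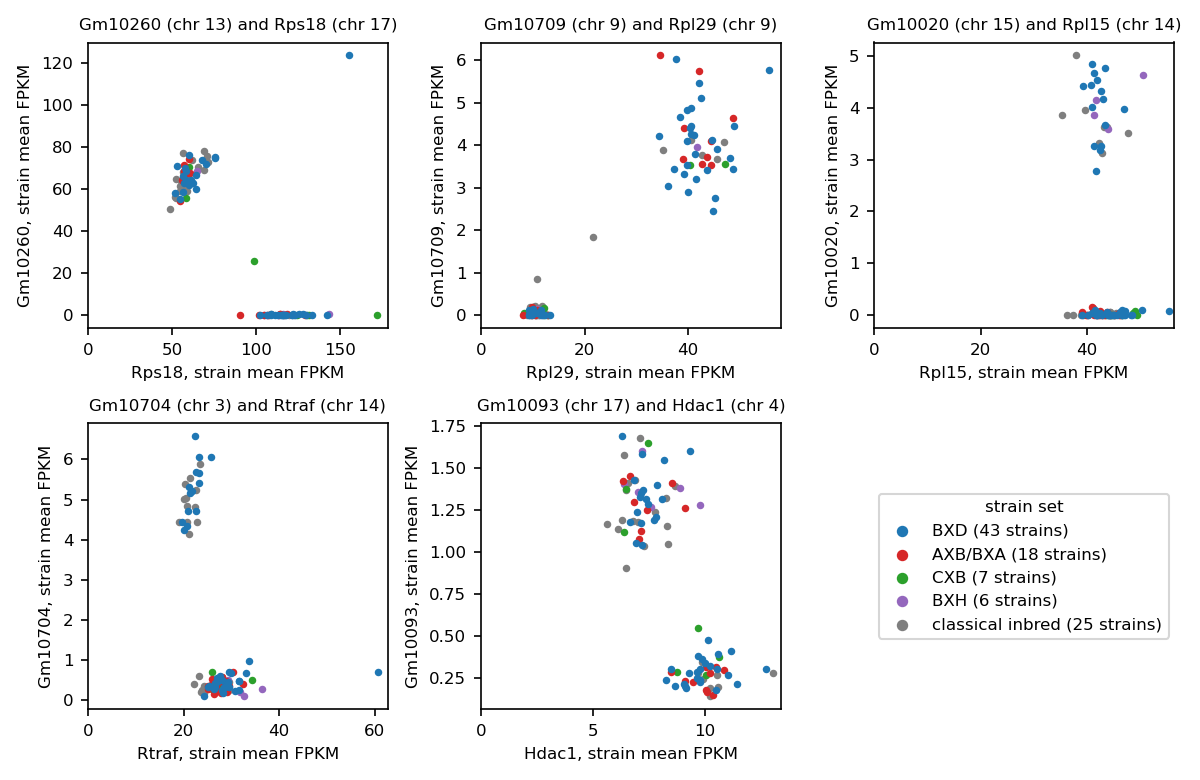
Strain means in FPKM of 5 retrocopies (vertical axes) against their parent genes (horizontal axes), 1 point per strain, 99 strains, coloured by strain set. Strains with Gm10260 near 0 FPKM have the higher Rps18 levels, strains with Gm10709 near 0 have the lower Rpl29 levels, and Gm10020 falls into separate levels over a narrow range of Rpl15.

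Among the non-coding RNAs, Gm15564 (chr16:35981194-35983202), an antisense RNA, was higher in all 4 parents than in C57BL/6J. The C57BL/6J mice measured 2.21, 1.21 and 5.70 FPKM for Gm15564, and the DBA/2J mice 20.04, 16.97 and 28.8 FPKM. Its log2 difference in DBA/2J was 2.63 ± 0.48 (SE, adjusted p = 7.5e-06, limma). In A/J (1.63), BALB/cJ (1.84) and C3H/HeJ (1.79) the log2 difference of Gm15564 passed at adjusted p of 0.015, 0.0051 and 0.0061 (limma), and did not pass when only the 2 strains entered the fit (adjusted p = 0.066, 0.056 and 0.086). The highest mouse for Gm15564, at 620 FPKM, was mouse OB-547.

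Gm13999 (chr2:120024807-120027453), antisense to Mapkbp1, measured 0.237, 0.832 and 0.284 FPKM in the C57BL/6J mice and 1.73, 2.95 and 3.16 FPKM in the C3H/HeJ mice (log2 difference 1.32 ± 0.26, SE, adjusted p = 3.5e-05, limma). With 0.01 instead of 1 added before the logarithm, this call of Gm13999 was lost (adjusted p = 0.35). Gm10516 was lower in all 4 parents: the C57BL/6J mice measured 3.53, 2.92 and 2.55 FPKM and the DBA/2J mice 1.86, 1.30 and 1.53 FPKM for Gm10516 (log2 difference -0.64 ± 0.12, SE, adjusted p = 2.3e-05, limma). Gm16701 measured 5.54, 5.96 and 6.95 FPKM in the C57BL/6J mice and 2.28, 2.59 and 2.26 FPKM in the DBA/2J mice (log2 difference -1.08 ± 0.15, SE, adjusted p = 3.2e-09, limma). These 3 RNAs did not overlap between the mice of the parents given.

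Gm17732, Gm15631 and Gm12031, which were among the 5 largest differences of a comparison, were lower than in C57BL/6J. The first of them, Gm17732, whose exonic bases all lie in Spink10, a serine peptidase inhibitor, measured 3.52, 4.43 and 1.44 FPKM in the C57BL/6J mice and 0.237, 0.637 and 0.271 FPKM in the BALB/cJ mice (log2 difference -1.51 ± 0.33, SE, adjusted p = 2.8e-04, limma). Gm15631, an intergenic RNA, measured 4.54, 5.04 and 7.55 FPKM in the C57BL/6J mice and 2.38, 2.27 and 1.51 FPKM in the BALB/cJ mice (log2 difference -1.12 ± 0.22, SE, adjusted p = 6.6e-05, limma). Gm12031, another intergenic RNA, measured 0.757, 1.86 and 2.23 FPKM in the C57BL/6J mice and 0.593, 0 and 0 FPKM in the A/J mice (adjusted p = 0.028, limma). Leaving out 1 replicate of every strain took these calls past 0.05, to an adjusted p of 0.067 for Gm17732, 0.055 for Gm15631 and up to 0.37 for Gm12031.

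The recombinant strains were then placed between the parents. They are other mice than those of the parent comparisons. A strain was counted near a parent where its mean log2(FPKM + 1) lay on that parent's side of the middle one of 3 equal parts of the interval between the parent means, so a strain beyond a parent's level also counts as near it. Over the 17 predicted genes that differed between DBA/2J and C57BL/6J with no overlap of mice, 659 of 731 placements of BXD strains were near a parent (90.2%), against 79.9% for all gene rows chosen the same way, and 38.0% lay beyond a parent's mean (all such rows 31.7%). The corresponding numbers were 239 of 288 for AXB/BXA (all such rows 77.2%), 74 of 91 for CXB (81.3%, all such rows 76.3%) and, over 18 genes and 6 strains, 81.5% for BXH (all such rows 80.3%). Of the same predicted genes, 15 of 17 also passed among the BXD strains (88.2%, all such rows 88.5%), 11 of 16 among AXB/BXA (68.8%, all such rows 77.8%), 8 of 13 among CXB (61.5%, all such rows 35.8%) and 10 of 18 among BXH (55.6%, all such rows 54.1%).

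In the BXD set the retrocopies fell into 2 levels with no strain in the middle. Gm10260 was like DBA/2J in 22 BXD strains and like C57BL/6J in 21. Gm10709 and Gm10020 were each like DBA/2J in 15 strains and like C57BL/6J in 28. Gm10704 divided 14 to 29, Gm10093 19 to 24, and the zinc finger genes Gm14420 and Gm14403 16 to 27. Gm13375 (chr2:20969054-20969997), an antisense RNA at 7.87, 7.81 and 8.16 FPKM in the C57BL/6J mice and 14.8, 16.1 and 17.2 FPKM in the DBA/2J mice, divided 17 to 26. By contrast Gm16701 had 6 BXD strains in the middle, and Gm15564 had 16, with 23 like DBA/2J and 4 like C57BL/6J. In the AXB/BXA set Gm10260 divided 8 to 10 and Gm10709 9 to 9, again with none in the middle. The sample titles of AXB-18/PgnJ, AXB-19/PgnJ and AXB-20/PgnJ share 1 strain number. These strains may therefore not be independent of each other, which holds for every AXB/BXA count.

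**Figure D5:**
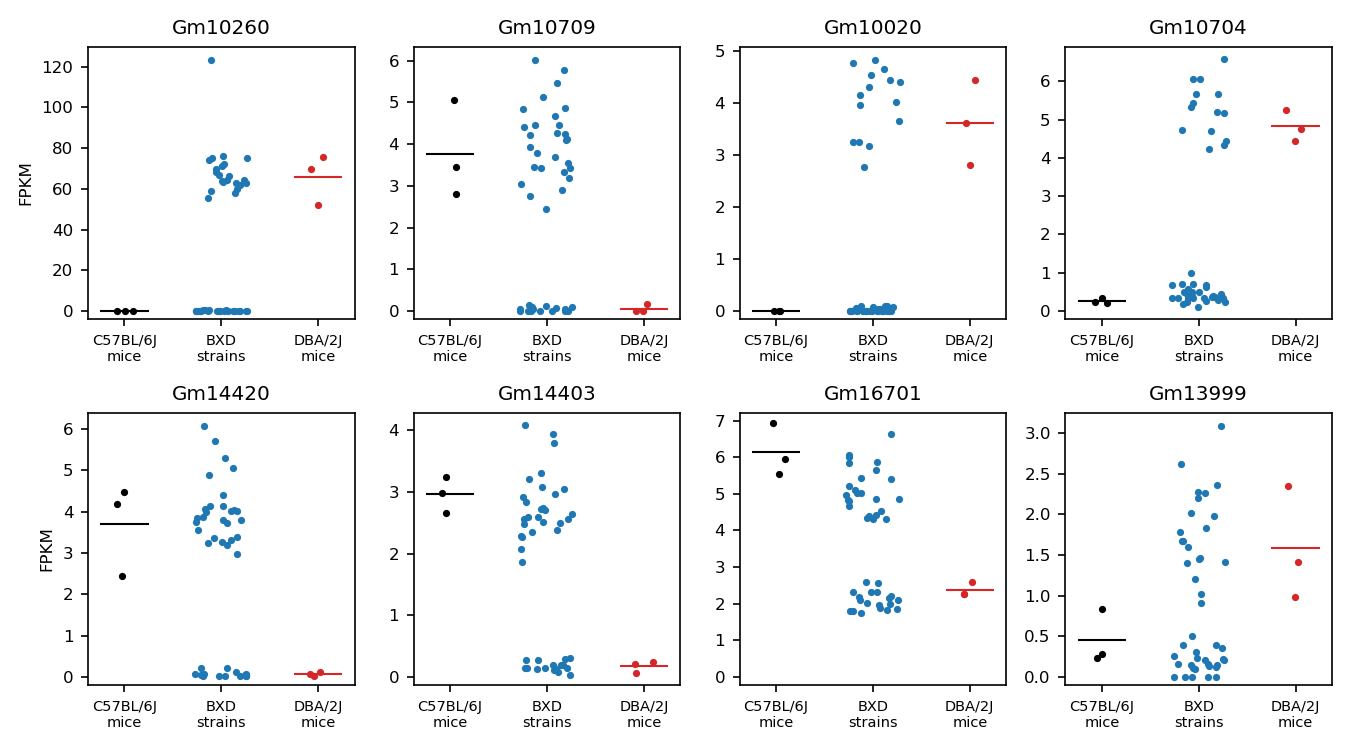
FPKM of predicted genes in single C57BL/6J mice (left, 3 points), in the 43 BXD strains as strain means (middle) and in single DBA/2J mice (right, 3 points), 1 panel per gene with its own vertical axis. For Gm10260 the BXD strains gather at the 2 parent levels, near 0 FPKM and above 50 FPKM.

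The placements were also compared with those of other gene rows within 5 Mb that placed at least 90% of the strains (for BXD, among the 946 rows that differed between DBA/2J and C57BL/6J with no overlap of mice, and for AXB/BXA 254 of the 1105 such rows for A/J). These are descriptions of strains, chosen after values were seen, with no test. Gm10260 lies on chromosome 13 and Rps18 on chromosome 17. In the BXD strains Gm10260 fell on the same parent's side as 6 rows near Rps18 in 88.1% to 100% of the strains, among them H2-T22, a histocompatibility gene, in 43 of 43. The 1 such row near Gm10260 itself, Zbed3, was on the same side in 19 of 39 strains. In AXB/BXA the 7 rows near Rps18 were on the same side in 94.1% to 100% of the strains, and Gfm2 and Nsa2 near Gm10260 in 7 of 17 and 8 of 18. Few rows represent the region of Gm10260 itself, and no genotypes were used. Gm10260 and Rps18 themselves were on the same parent's side in 40 of 41 BXD strains and 18 of 18 AXB/BXA strains.

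Gm10709 and Rpl29 were on the same side in 43 of 43 BXD strains and 18 of 18 AXB/BXA strains. Tma7, near Rpl29, was on the side of Gm10709 in 36 of 42 BXD strains and 17 of 17 AXB/BXA strains, and Abhd14a in 17 of 17 AXB/BXA strains. No row near Gm10709 itself met the criterion. Gm10020 on chromosome 15 and Gm10704 on chromosome 3 were on the same side in 40 of 43 BXD strains, and their parent genes, Rpl15 and Rtraf, both lie on chromosome 14. The 1 row near Gm10704 itself was on its side in 52.4% of the BXD strains. For Gm10093 the 4 rows near Hdac1 gave 51.2% to 71.8% in BXD and the 2 in AXB/BXA 88.2% and 88.9%, so this pair was less clear.

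The non-coding RNAs and zinc finger genes varied in how they compared with rows near their own place. The antisense RNA Gm13999 fell on the same side as all 6 rows near it on chromosome 2 in every BXD strain placed, among them Ivd, an enzyme of leucine breakdown, in 39 of 39 and Stard9 in 41 of 41. In AXB/BXA the 5 rows near Gm13999 were also on the same side in every strain. Gm10516 was on the side of Ints7, of the Integrator complex, in 17 of 17 AXB/BXA strains, and of Tatdn3 in 16 of 16 AXB/BXA and 29 of 35 BXD strains. Others matched less often. In the BXD strains the rows near Gm13375 were on its side in 53.5% and 53.8% of the strains, those near Gm15564 in 25% and 40.7%, and those near Gm16701 in 36.1% to 100%. Near Gm14420 and Gm14403, Ppdpf was on the side of Gm14403 in 24 of 40 BXD strains and an unnamed row in 23 of 43.

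The 9 predicted genes of the KRAB zinc finger cluster at the end of chromosome 2 (Gm14399, Gm14305, Gm14295, Gm14410, Gm14420, Gm14403, Gm14322, Gm14325 and Gm14326, chr2:175130128-177957239) were each under 1 FPKM in 2 to 20 strains. This group was set by position, after values were seen. All 9 passed the test between strains (all gene rows 75.4%), with strain shares from 0.516 for Gm14295 to 0.925 for Gm14305. Members of the cluster resemble each other, for example Gm14325 and Gm14326 at 97.2% identity over 1515 nucleotides, so reads can fit several of them.

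Gm14420 and Gm14403 were low in the same strains. The C57BL/6J mice measured 2.44, 4.48 and 4.19 FPKM for Gm14420, and the DBA/2J mice 0.0696, 0.135 and 0.0297 FPKM (log2 difference -2.10 ± 0.22, SE, adjusted p = 9.3e-16, limma). Gm14403 measured 2.66, 3.24 and 2.98 FPKM in the C57BL/6J mice and 0.214, 0.0742 and 0.238 FPKM in the DBA/2J mice (log2 difference -1.75 ± 0.22, SE, adjusted p = 1.2e-11, limma). Both were under 1 FPKM in 20 strains, which were 16 BXD strains, DBA/2J, NZW/LacJ, SEA/GnJ and BXH-19/TyJ, and they were on the same parent's side in 43 of 43 BXD strains. Gm14399, in the same cluster, did not pass among BXD strains (adjusted p = 0.87, limma) and was under 1 FPKM in 7 other strains, BUB/BnJ, CE/J, KK/HlJ, NON/LtJ, NZB/BlNJ, SJL/J and SWR/J. The strains with low levels thus differed between genes of the cluster.

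In BXH-19/TyJ, 8 of the 9 were near 0 although both parents were high. The strain means of the 2 BXH-19/TyJ mice were 0 FPKM for Gm14305, 0.0194 for Gm14325, 0.0562 for Gm14322, 0.0679 for Gm14295, 0.0916 for Gm14410, 0.0929 for Gm14420, 0.165 for Gm14403 and 0.364 for Gm14326. Only Gm14399, the first of the cluster, was at 3.27 FPKM. In C57BL/6J the means of the same 9 genes ranged from 2.39 FPKM for Gm14322 to 9.25 FPKM for Gm14295, and in C3H/HeJ from 2.19 FPKM for Gm14403 to 10.9 FPKM for Gm14295. A recombinant strain that was off with both parents on was found for 2 predicted genes (0.99%, against 0.0781% of all gene rows), Gm14305 and Gm14325, both in BXH-19/TyJ. BXD-38/TyJ did not meet this rule but was also low for Gm14305. Its strain mean was 0.0923 FPKM, with C57BL/6J at 3.99 and DBA/2J at 5.29 FPKM. The classical strain NZW/LacJ was low for the same 8 genes, from 0 FPKM for Gm14322 to 0.492 FPKM for Gm14326, with Gm14399 at 3.80 FPKM. No predicted gene was on in a recombinant strain with both parents off, against 0.0071% of all gene rows.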

How the data were processed

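Hypothalamus RNA of 282 mice was sequenced as unstranded TruSeq mRNA libraries with paired reads of 50 bases. Alignment to mm10 by the authors used STAR 2.3.1 and kept reads that map to several places. Transcripts were then assembled for each strain in Cufflinks 2.2.0 and joined to GENCODE M2. The deposited values are FPKM that the authors computed with Cuffquant and Cuffnorm 2.2.1, which scales them between mice, for features detected (over 0) in 100 or more mice and over 1 FPKM in 50 or more. No counts are given, so depth is unknown and no counting interval was computed. The number of mouse columns not used is 0.

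Predicted genes were the gene rows whose only name in the deposited assembly runs from Gm10000 to Gm19999. The members, lists and comparisons were chosen with earlier results of these data known. FPKM were tested as log2(FPKM + 1) with limma 3.58.1 in R 4.3.3, all 99 strains in 1 fit without covariates, by a moderated F test or a contrast of 2 strains. Adjustment was by Benjamini and Hochberg over all 14079 gene rows, with a threshold of 0.05. Within each set the F test was fitted on the mice of that set alone. The test was also tested on simulated data. Mouse OB-627 has 2 strain names in its labels and entered no strain comparison. Strain share is the intraclass correlation. Replicate numbers were given in accession order and pair no mice. Whether mice of 1 strain shared a cage or litter is not given in the sources used here, so p values measure the spread between these mice.

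Genes were named by rule: the 10 with the highest mean, the 10 with the largest strain share, those with an on or off pattern, the 5 with the largest difference in each parent contrast among those past the threshold with no overlap of mice, and the 3 with the lowest share. Other genes were named after their values or positions had been seen. Gene types, overlaps and sequences came from GENCODE M21, which uses GRCm38, further types and names from RefSeq, and copies from blastn 2.17.0+ among M21 transcripts with an alignment of at least 100 nucleotides. The copy of a gene was its best match in a protein coding gene, or its best match of any type where no coding gene matched. All else was done in Python 3.11.15 (scipy 1.17.1, pandas 2.3.3, numpy 2.4.6, and matplotlib 3.10.9 for the figures). Alternatives were other pseudocounts, quantile normalization, a minimum mean of 1 FPKM, the Kruskal-Wallis test, fits of 2 strains, leaving out replicates or mouse OB-547, the placement of mouse OB-627 and other limits of the on or off pattern. The on or off count without mouse OB-547 was added after the data had been seen. Genotypes were not analysed here.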

Additional observations from a re-analysis of the deposited data

How the results depend on the processing

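Leaving out replicate 1, 2 or 3 of every strain in turn left 74 to 101 predicted genes that differed between strains (118 with all mice), 10 to 13 for A/J (17), 6 to 9 for BALB/cJ (13) and 10 to 17 for C3H/HeJ (18). Among the strains of a set it left 33 to 49 for BXD (73), 22 to 25 for AXB/BXA (41), 2 to 10 for CXB (15), 16 to 27 for BXH (36) and 64 to 81 for classical inbred strains (102), with fewer mice in each fit. The median strain share was then 0.143 to 0.194, and 16 to 20 predicted genes had an on or off pattern, since fewer mice per strain had to meet the limits. With a mean FPKM of at least 1 the median strain share was 0.175 and 11 predicted genes differed in DBA/2J (18), with fewer genes tested. By the Kruskal-Wallis test 47 passed among BXD and 60 among classical inbred strains, and 0 among AXB/BXA, CXB and BXH strains. In these 3 sets 35, 18 and 20 had an unadjusted p under 0.05 by this test, and the adjusted limma calls were 41, 15 and 36. The change was larger than that from leaving out a replicate. Ranks of few mice bound how small a p can be in a small set, so these 0 calls cannot be set against the limma counts. The on or off count of 11 became 18 with strain means in place of every mouse and 4 with at least 10 strains off and 10 on. The cause of the Kruskal-Wallis differences was not tested. Of the other values of these summary results, 83 stayed within their limits, and for single genes 471 values kept their call, 30 lost it, 2 gained it and 0 changed sign. The calls lost were those of Gm15564 in A/J, BALB/cJ and C3H/HeJ and of Gm10132, Gm11175, Gm12031, Gm12473, Gm13008, Gm13999, Gm15631, Gm15648, Gm17104 and Gm17732. No paired analysis was possible because the labels give no replicate numbers and numbers in accession order pair no mice. The depth of single values is unknown, so levels near 0 FPKM cannot be told from 0.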

Other observations

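The labels of mouse OB-627 name AXB-6/PgnJ and AXB-8/PgnJ. Of 86 predicted genes for which the mice of these strains did not overlap, the mouse lay within the range of AXB-6/PgnJ alone for 15, within that of AXB-8/PgnJ alone for 12 and within neither for 59. It measured 71.3 FPKM for Gm10260, where the AXB-6/PgnJ mice were listed at 0 and the AXB-8/PgnJ mice measured 64.8 to 78.3 FPKM. For Gm13375 it measured 13.8 FPKM, where the AXB-6/PgnJ mice measured 12.9 to 14.7 FPKM and the AXB-8/PgnJ mice 16.1 to 18.2 FPKM. Gm10260 thus lay in the range of one strain and Gm13375 in that of the other. The 2 genes differ in kind, however. For Gm13375 the mice of both strains were above the C57BL/6J mice (7.81 to 8.16 FPKM), on the side of the A/J mice (12.4 to 14.8 FPKM). Gm13375 therefore does not place the 2 strains at different parent levels, as Gm10260 does. The strain of the mouse was not assigned.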
